A study of Rattus norvegicus with 24 samples.

Results

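The integrated stress response core genes are 10 rat genes of the axis around the transcription factor ATF4, namely Atf4, Atf5, Ddit3, Trib3, Chac1, Asns, Sesn2, Ppp1r15a, Cebpb and Eif4ebp1. They were chosen by name, as known parts of this pathway, but with earlier results of these data known. Each was found by its symbol among the 26404 gene identifiers of the series. Their transcripts were measured by RNA sequencing in INS-1 cells, which come from a rat insulin-producing tumour and stand in for beta cells of the pancreas. The 6 groups, of 4 libraries each, were BMS-21 (1 µM) for 6 h, GLP-1 (100 nM) for 6 h, Control for 6 h, BMS-21 for 1 h, GLP-1 for 1 h and Control for 1 h. GLP-1 (glucagon-like peptide 1) is an incretin hormone that acts on beta cells through cAMP. BMS-21 is a compound known here only by its code name, and Control received the vehicle DMSO. Every group, Control included, had been kept for 90 min at 3 mM glucose and was then given fresh medium with 11 mM glucose together with its treatment. A change between 1 h and 6 h in Control is therefore a change after this shift of medium and glucose. The questions were how far these genes fell in Control between 1 h and 6 h and whether either agent altered that course.

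The integrated stress response starts when kinases that sense misfolded protein, lack of amino acids, haem deficiency or double-stranded RNA phosphorylate the translation factor eIF2. General protein synthesis then slows, while the messenger RNA of ATF4 is translated more, and ATF4 drives genes for amino acid supply, redox balance and, if the stress lasts, cell death. Beta cells lean on this pathway because of their heavy load of newly made proinsulin. Transcript levels, as measured here, show neither the phosphorylation of eIF2 nor the amount of ATF4 protein.

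The promoters of 9 of the 10 genes are in the RefSeq set of the rat assembly GRCr8 (250 bases before the transcript start to 50 after it). That assembly differs from the build of the expression data, Rnor_5.0, so only names and distances from the start are used. Searched on both strands, 3 of the 9 promoters held a motif of the ATF4, C/EBP or CREB families. The motifs were TGATGNAA, the core of the C/EBP-ATF response element, TGANGCAA, a shared ATF4 and C/EBP site that can coincide with the first, and TGACGTCA, the cAMP response element. Among all 33469 promoters of the set, 3.98% held the first, 3.65% the second and 1.83% the third, and the motifs were chosen after the sequences had been seen. The stretches shown lie upstream of the start on the gene's own strand, 5′ to 3′, with the motif in capitals. They belong to the 3 members with a match, whatever their change in expression. The other promoters searched, that of Cebpb among them, held none.
Trib3: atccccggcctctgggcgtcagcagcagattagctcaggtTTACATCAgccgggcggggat
Chac1: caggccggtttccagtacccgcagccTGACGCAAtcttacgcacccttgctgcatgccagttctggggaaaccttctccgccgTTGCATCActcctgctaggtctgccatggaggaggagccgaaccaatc
Ppp1r15a: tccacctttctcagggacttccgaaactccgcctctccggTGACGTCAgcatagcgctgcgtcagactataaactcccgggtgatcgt
The Trib3 match (chromosome 3) is TGATGNAA read on the opposite strand, 21 bases before the start. Chac1 (chromosome 3) has TGANGCAA at 224 bases before the start and, at 167 bases, a site on the opposite strand that fits both TGATGNAA and TGANGCAA. The Ppp1r15a match (chromosome 1) is the full TGACGTCA, 66 bases before the start. A match describes the letters of this window and says nothing of binding.

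The libraries held 10667350 to 13148970 reads assigned to genes, and the detection floor of 3 reads came to 0.228 to 0.281 RPM, which covers counting error only. RPM are a gene's reads scaled to 1000000 reads per library, here adjusted by the TMM method, so they compare a gene between libraries and not genes with each other. Beta cell markers were present, with a summed level of 15808 to 17942 RPM per group over the 10 measured (Ins1, Ins2, Iapp, Pdx1, Nkx6-1, Nkx2-2, Neurod1, Mafa, Slc2a2 and Glp1r). Only 7 of the 10 stayed above 50 RPM in every library. Of 16 markers of other cells, 14 stayed under 1 RPM in all libraries, and the exceptions were Krt7 and Gcg. The sum of the 16 was 63.2 RPM in BMS-21, 69.1 in GLP-1 and 75.1 in Control at 6 h, and 83.4, 87.4 and 82.5 RPM in the same order at 1 h, and its part in the results was not tested. In bulk RNA, fewer cells of a kind and less RNA per cell cannot be told apart. Strand is not kept by the library kit, and reads of an antisense transcript that overlaps a gene cannot be told from its own. Whether replicates came from separate cultures is not in the labels, and p-values here cover the spread among these samples, which may be technical.

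All 9 measured members fell in Control between 1 h and 6 h. The 10th, Eif4ebp1, which encodes the translation repressor 4E-BP1, had a single read in each of 3 libraries and 0 in the others, under the floor of 3 reads in every library, and was not tested. Each of the 9 had at least 32 reads in every library, so none entered the test through the 1 h group alone. For comparison, 52.9% of the 13114 genes tested were called, 26.9% lower at 6 h and 26% higher, in edgeR's quasi-likelihood test, with an adjusted p under 0.05 as the threshold. The median log2 fold change of the 9 members was -1.66, and that of all genes tested was -0.01. In every member the highest 6 h Control library lay below the lowest 1 h Control library. The share of all genes that were apart in this way is not given here.

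The regulators came first in the order of roles. Atf4, the transcription factor at the centre of the axis, had 215, 207, 214 and 232 RPM in the 4 Control libraries at 6 h, against 392, 396, 407 and 415 RPM in Control at 1 h. The libraries of a group lay within a narrow band and the groups were far apart, and the fall was 1.85-fold (log2 fold change -0.89 ± 0.04, SE; adjusted p = 2.7e-22). Atf5, a related factor whose translation is controlled in the same way, had 833, 770, 890 and 852 RPM in Control at 6 h, against 1328, 1236, 1331 and 1271 RPM at 1 h. Its fall was the smallest of the 9 members (-0.63 ± 0.07, adjusted p = 3.6e-07). Cebpb encodes a C/EBP family factor that pairs with ATF4 and also responds to cAMP. It had 16.3, 19.0, 15.5 and 18.8 RPM in Control at 6 h, against 39.3, 38.8, 45.3 and 42.9 RPM at 1 h, a fall of 1.26 ± 0.13 on the log2 scale (adjusted p = 3.8e-08). Ddit3, which encodes the pro-apoptotic factor CHOP, had 28.6, 28.3, 41.9 and 38.4 RPM in Control at 6 h, against 105, 102, 130 and 130 RPM at 1 h (log2 fold change -1.77 ± 0.18, adjusted p = 1.1e-07). Within each time replicates 3 and 4 were higher than replicates 1 and 2 for Ddit3.

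The feedback genes fell further. Trib3 encodes a pseudokinase that is induced by ATF4 and CHOP and restrains both, and it also binds AKT. Its levels were 11.7, 9.69, 14.3 and 12.5 RPM in Control at 6 h, against 166, 155, 222 and 186 RPM at 1 h. This was the largest fall of the 9 members, 15.1-fold (log2 fold change -3.92 ± 0.24, adjusted p = 4.5e-11), and left 6.61% of the 1 h mean. Ppp1r15a encodes GADD34, the subunit that directs a phosphatase to eIF2 and so ends the response. It had 39.5, 43.2, 41.6 and 41.3 RPM in Control at 6 h, against 165, 167, 214 and 201 RPM at 1 h (4.51-fold lower, -2.17 ± 0.11, adjusted p = 1.5e-12).

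Among the effectors, Chac1, which encodes an enzyme that breaks down glutathione, fell 10.4-fold. Control held 3.43, 3.15, 4.51 and 3.10 RPM at 6 h, against 27.7, 35.4, 46.7 and 37.7 RPM at 1 h (log2 fold change -3.37 ± 0.31, adjusted p = 2.1e-08). At 38 to 56 reads per library, the 6 h values of Chac1 in Control were the least precise of the members. Asns, which makes asparagine, had 170, 177, 155 and 165 RPM in Control at 6 h, against 484, 481, 486 and 506 RPM at 1 h (-1.55 ± 0.04, adjusted p = 6.7e-28). Sesn2 encodes sestrin 2, a leucine sensor that restrains mTORC1. It had 98.4, 96.6, 102 and 99.0 RPM in Control at 6 h, against 299, 303, 334 and 316 RPM at 1 h (-1.66 ± 0.06, adjusted p = 8.2e-19). Asns and Sesn2 kept 34.1% and 31.6% of their 1 h means.

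**Figure D1:**
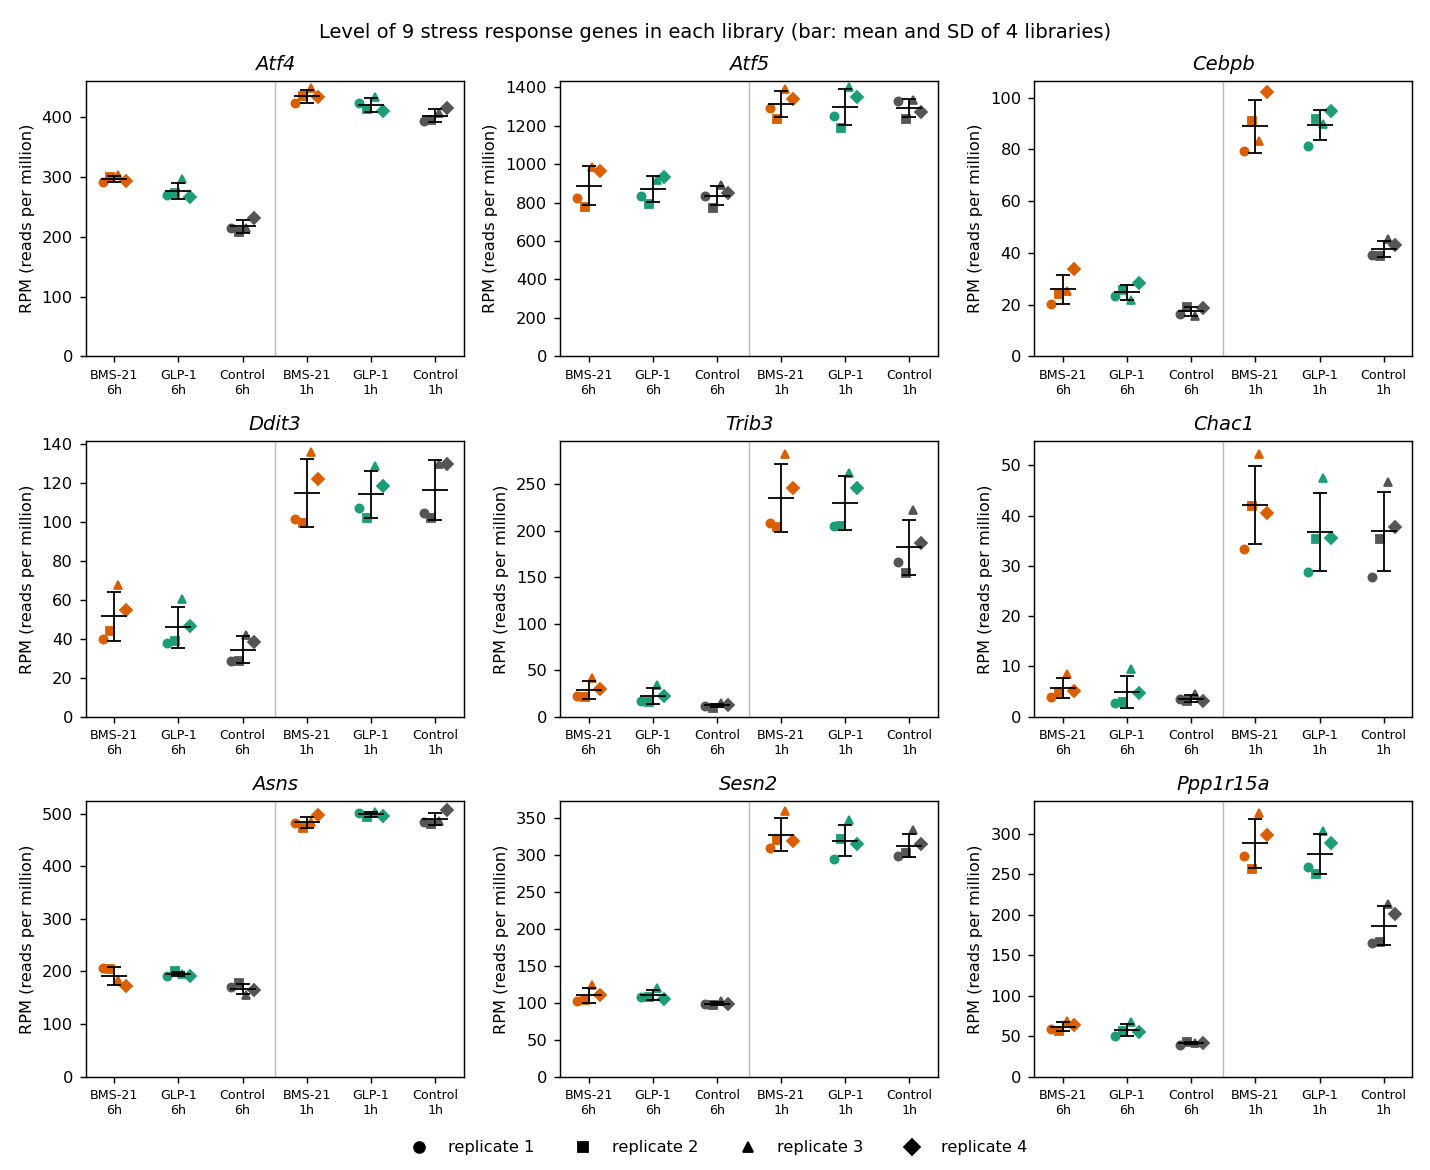
RPM (vertical axes, linear, from 0) of the 9 measured members in each library, by group, with marker shape for the replicate number and bars for the mean and SD of 4 libraries. Every member is lower at 6 h than at 1 h in each treatment without overlap, and Cebpb and Ppp1r15a are also apart between the agents and Control at 1 h.

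The same 9 members fell between 1 h and 6 h under each agent. Of all genes tested, 61.4% were called with BMS-21 (30.1% higher and 31.3% lower at 6 h) and 59.2% with GLP-1 (29.2% higher and 30% lower). In each of the 9 members and each treatment the 6 h and 1 h libraries did not overlap. As in Control, the share of all genes apart in this way is not given, so this is not read as particular to the members. For Trib3 the fall was -3.06 ± 0.21 on the log2 scale with BMS-21 and -3.38 ± 0.22 with GLP-1, and the 6 h level was 12.0% of the 1 h level with BMS-21, 9.56% with GLP-1 and 6.61% in Control. The log2 fold change of Ppp1r15a was -2.23 ± 0.10 with BMS-21 and -2.26 ± 0.10 with GLP-1, and it kept 21.4% and 20.8% of its 1 h level, against 22.2% in Control. The log2 fold change of Cebpb was further below 0 with the agents, at -1.78 ± 0.11 with BMS-21 and -1.85 ± 0.11 with GLP-1, against -1.26 ± 0.13 in Control. In the other measured members the log2 fold change was furthest below 0 in Control, and the tests of the difference are given below.

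**Figure D2:**
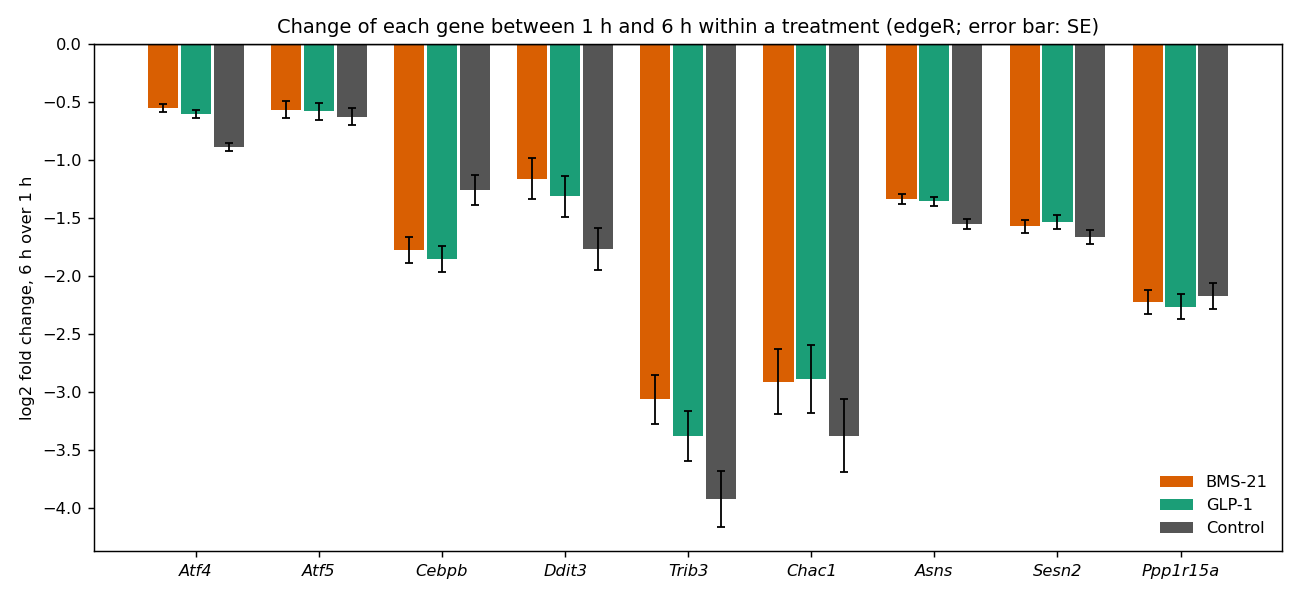
Log2 fold change of 6 h over 1 h (vertical axis) for each member within BMS-21, GLP-1 and Control, from edgeR, with bars for the SE. All values are below 0, from -0.55 for Atf4 with BMS-21 to -3.92 for Trib3 in Control. Control is the furthest from 0 for 7 members and the nearest for Cebpb and Ppp1r15a.

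At 6 h, BMS-21 libraries had more RNA of 7 of the 9 members than Control, and GLP-1 libraries of 5, while 0 members were lower with either agent. The comparisons share their Control libraries. Across all genes tested with limma, 33.6% were called with BMS-21 (16.8% higher and 16.8% lower) and 31.7% with GLP-1 (16.2% higher and 15.6% lower). Scaling by library totals instead gave 1510 higher and 3068 lower genes with BMS-21 (2125 and 2128 in the main test), and 1451 and 2960 with GLP-1 (2044 and 1967). The median log2 fold change of the members was 0.55 with BMS-21 and 0.35 with GLP-1, and for all genes it was 0.00 with each. A block for the replicate number, which removes differences shared by libraries of the same number, raised the calls to 9 with BMS-21 and 8 with GLP-1. At 1 h the block also raised the calls over all genes, from 751 to 1551 with BMS-21 and from 837 to 1513 with GLP-1. Its calls over all genes at 6 h are not given here, so the rise is not read as particular to the members.

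Atf4 held 291, 299, 302 and 293 RPM with BMS-21 and 270, 272, 296 and 266 RPM with GLP-1 at 6 h, against the 207 to 232 RPM of Control. The libraries of each agent were all above those of Control, by 0.45 ± 0.04 on the log2 scale with BMS-21 (adjusted p = 3.9e-09) and 0.35 ± 0.04 with GLP-1 (adjusted p = 6.7e-07). Ppp1r15a had 58.8, 56.3, 68.8 and 63.2 RPM with BMS-21 and 50.6, 56.7, 67.3 and 54.7 RPM with GLP-1, against 39.5 to 43.2 RPM in Control. It too was apart from Control with both agents (0.57 ± 0.06, adjusted p = 9.6e-08 with BMS-21 and 0.47 ± 0.07, adjusted p = 2e-05 with GLP-1). Cebpb had 20.2, 24.3, 25.3 and 33.6 RPM with BMS-21 and 23.4, 25.7, 21.8 and 28.5 RPM with GLP-1, against 15.5 to 19.0 RPM in Control. Replicate 4 was the highest of each agent's libraries, and the differences were 0.55 ± 0.13 (adjusted p = 0.0061) and 0.51 ± 0.09 (adjusted p = 0.00011). With replicates 1 and 2 alone the BMS-21 difference was 0.33 (adjusted p = 0.011).

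Trib3 held 21.5, 20.6, 40.9 and 30.1 RPM with BMS-21 and 16.9, 15.2, 33.6 and 22.3 RPM with GLP-1 at 6 h, against 9.69 to 14.3 RPM in Control. All libraries of both agents were above those of Control, but replicate 3 of each agent stood well above replicates 1 and 2. Trib3 rose 2.27-fold with BMS-21 (log2 fold change 1.18 ± 0.24, adjusted p = 0.0082). With GLP-1 its log2 fold change of 0.81 ± 0.26 did not pass the threshold (adjusted p = 0.056), and passed it with the block (adjusted p = 7.7e-14). Without replicate 3 of GLP-1 at 6 h it was 0.58 (adjusted p = 0.0031), and without replicate 2 it was 0.96 (adjusted p = 0.023).

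Ddit3 had 39.7, 44.1, 67.7 and 54.7 RPM with BMS-21 and 37.6, 38.9, 60.6 and 46.4 RPM with GLP-1, against 28.3 to 41.9 RPM in Control, and the groups overlapped. Its log2 fold changes of 0.57 ± 0.22 with BMS-21 (adjusted p = 0.09) and 0.42 ± 0.20 with GLP-1 (adjusted p = 0.18) passed with the block (adjusted p = 4e-12 and 5.9e-11). With either agent each library was above the Control library of the same number in all 4 pairs. Chac1 had 3.98, 4.86, 8.55 and 5.10 RPM with BMS-21 and 2.64, 2.84, 9.50 and 4.64 RPM with GLP-1, against 3.10 to 4.51 RPM in Control. It rose with BMS-21 (0.61 ± 0.19, adjusted p = 0.021), but not past the threshold when replicate 3 of BMS-21 (0.39, adjusted p = 0.079) or replicate 1, 2 or 4 of Control (adjusted p = 0.055, 0.064 and 0.071) was left out. With replicates 1 and 2 alone it was 0.41 (adjusted p = 0.13). With GLP-1 the Chac1 libraries lay on both sides of Control (0.28 ± 0.39, adjusted p = 0.64), and the sign rested on replicate 3 of GLP-1, without which the value was -0.09 (adjusted p = 0.76). It was -0.25 (adjusted p = 0.46) with replicates 1 and 2 alone and 0.82 (adjusted p = 0.093) with replicates 3 and 4 alone.

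Asns had 207, 204, 184 and 172 RPM with BMS-21 and 192, 200, 196 and 191 RPM with GLP-1 at 6 h, against 155 to 177 RPM in Control. The GLP-1 libraries were all above Control (0.23 ± 0.04, adjusted p = 0.00012), and the BMS-21 libraries overlapped it in replicate 4 (0.20 ± 0.06, adjusted p = 0.012). Sesn2 had 102, 104, 125 and 111 RPM with BMS-21 and 108, 108, 120 and 106 RPM with GLP-1, against 96.6 to 102 RPM in Control, and the lowest BMS-21 library was only just above the highest Control library. These are the smallest differences that passed, at 0.15 ± 0.05 (adjusted p = 0.03) and 0.16 ± 0.04 (adjusted p = 0.0071). That of Sesn2 with BMS-21 was lost without replicate 3 (0.09, adjusted p = 0.13) or 4 (adjusted p = 0.066) of BMS-21 and without replicate 1, 2 or 4 of Control (adjusted p = 0.064, 0.079 and 0.061), and with replicates 1 and 2 alone (0.08, adjusted p = 0.22). With scaling by library totals, Sesn2 with either agent (adjusted p = 0.16 with BMS-21 and 0.061 with GLP-1) and Asns with BMS-21 (adjusted p = 0.073) no longer passed. Atf5 had 825, 778, 983 and 966 RPM with BMS-21 and 833, 791, 915 and 935 RPM with GLP-1, against 770 to 890 RPM in Control. Its log2 fold changes were 0.08 ± 0.08 (adjusted p = 0.52) and 0.06 ± 0.06 (adjusted p = 0.49), and with the block adjusted p was 0.024 and 0.014.

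At 1 h, 2 members were higher with each agent, Cebpb and Ppp1r15a, and 0 were lower. Among all genes tested, 5.91% were called with BMS-21 (3.54% higher and 2.37% lower) and 6.58% with GLP-1 (4.17% higher and 2.41% lower). Scaling by library totals gave 380 higher and 445 lower genes with BMS-21 (450 and 301 in the main test), and 449 and 506 with GLP-1 (530 and 307). Cebpb had 79.2, 91.1, 83.1 and 102 RPM with BMS-21 and 81.1, 91.8, 89.8 and 94.8 RPM with GLP-1, against 38.8 to 45.3 RPM in Control. Each agent's libraries were far above Control, 2.13-fold with BMS-21 (log2 fold change 1.09 ± 0.07, adjusted p = 2.6e-09) and 2.15-fold with GLP-1 (1.10 ± 0.06, adjusted p = 7.8e-14). Ppp1r15a had 272, 257, 326 and 298 RPM with BMS-21 and 259, 251, 304 and 289 RPM with GLP-1, against 165, 167, 214 and 201 RPM in Control. The groups did not overlap, and the differences were 0.63 ± 0.11 (adjusted p = 0.019) and 0.57 ± 0.11 (adjusted p = 0.022). Without replicate 1 or 4 of the agent, adjusted p for Ppp1r15a was 0.055 and 0.064 with BMS-21 and 0.057 and 0.059 with GLP-1.

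The other members at 1 h differed from Control by less than the unblocked test could call. Trib3 had 208, 204, 283 and 245 RPM with BMS-21 and 205, 205, 262 and 246 RPM with GLP-1, against 166, 155, 222 and 186 RPM in Control. Each agent's library was above the Control library of its number, while the groups as a whole overlapped through replicate 3 of Control. The log2 fold changes of 0.37 ± 0.15 (adjusted p = 0.34) and 0.34 ± 0.14 (adjusted p = 0.33) passed with the block (adjusted p = 2.4e-20 and 3.6e-18). The block also called Atf4 with BMS-21 (0.11 ± 0.02, adjusted p = 9.6e-05, against 0.057 without it and 0.041 without replicate 4 of Control) and Chac1 with BMS-21 (0.19 ± 0.05, adjusted p = 0.0036), which made 5 members with BMS-21 and 3 with GLP-1. Among all genes the block called 1551 with BMS-21 and 1513 with GLP-1, against 751 and 837 without it. Ddit3 gave -0.03 ± 0.14 with BMS-21 and -0.03 ± 0.11 with GLP-1, and Asns -0.02 ± 0.03 and 0.03 ± 0.03.

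**Figure D3:**
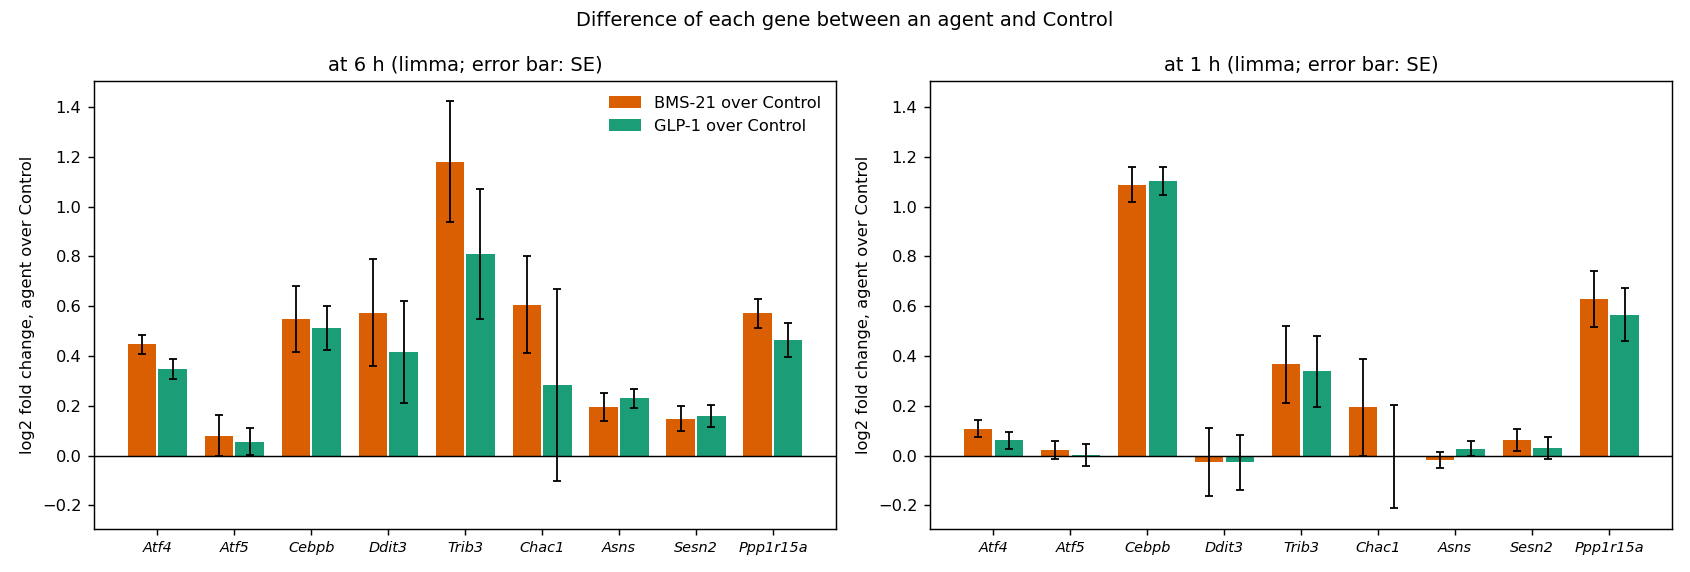
Log2 fold change of each agent over Control (vertical axis) at 6 h and at 1 h for the 9 members, from limma, with bars for the SE. Cebpb and Ppp1r15a are above Control at both times, while Atf4 stands at 0.45 with BMS-21 and 0.35 with GLP-1 at 6 h and at 0.11 and 0.06 at 1 h.

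Whether an agent altered the fall was tested as the difference between its response at 6 h and its response at 1 h, in the edgeR fit of all 24 libraries. With each agent this difference passed for 3 members, positive for Atf4 and Asns and negative for Cebpb. Among the 13114 genes, 21.7% were called with BMS-21 (10.8% positive and 10.9% negative) and 17.3% with GLP-1 (8.3% and 9.01%). For Atf4 it was 0.34 ± 0.05 with BMS-21 (adjusted p = 2.2e-06) and 0.28 ± 0.05 with GLP-1 (adjusted p = 4.9e-05), so that 68.2% and 65.7% of the 1 h level were left at 6 h, against 54.0% in Control. For Asns it was 0.22 ± 0.06 (adjusted p = 0.0053) and 0.20 ± 0.06 (adjusted p = 0.014), with 39.6% and 39.1% left, against 34.1% in Control. With replicates 1 and 2 alone the Asns difference with GLP-1 did not pass (0.13, adjusted p = 0.062). For Cebpb, whose response was larger at 1 h, it was -0.52 ± 0.17 (adjusted p = 0.038) and -0.59 ± 0.18 (adjusted p = 0.022), with 29.1% and 27.8% left, against 41.8% in Control.

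In the main fit the difference did not pass in the other measured members. For Atf5 it was 0.06 ± 0.10 with BMS-21 and 0.05 ± 0.10 with GLP-1. In the same order it was 0.61 ± 0.26 and 0.45 ± 0.26 for Ddit3 and 0.86 ± 0.34 and 0.54 ± 0.35 for Trib3. Chac1 gave 0.47 ± 0.49 and 0.49 ± 0.50, and Sesn2 0.09 ± 0.08 and 0.13 ± 0.08. The Cebpb difference was the least stable of those that passed. With GLP-1, adjusted p was 0.053 without replicate 3 of GLP-1 at 6 h and 0.056 and 0.054 without replicate 2 or 4 of Control at 6 h. With BMS-21 the Cebpb call was lost without any of 9 of the 16 libraries in turn (replicates 1 and 2 of Control at 1 h, 2 and 4 of BMS-21 at 1 h, 2 and 4 of Control at 6 h and 1, 2 and 3 of BMS-21 at 6 h), with adjusted p of at most 0.087. It was also lost with no filter on low counts (adjusted p = 0.069) and in a fit of the contrasted libraries alone (adjusted p = 0.067). With replicates 3 and 4 alone it was -0.28 with BMS-21 (adjusted p = 0.57) and -0.52 with GLP-1 (adjusted p = 0.32), and with replicates 1 and 2 alone -0.77 and -0.66, both past the threshold. The block kept all 3 members with each agent and added Ddit3 (0.61 ± 0.08, adjusted p = 6.9e-08 with BMS-21 and 0.45 ± 0.08, adjusted p = 3.1e-05 with GLP-1) and Trib3 (0.85 ± 0.16, adjusted p = 0.00055 and 0.53 ± 0.17, adjusted p = 0.029). With GLP-1 it also added Sesn2 (0.13 ± 0.04, adjusted p = 0.023), which made 5 members with BMS-21 and 6 with GLP-1. The calls of the block over all genes for this difference are not given here. Ppp1r15a, higher with both agents at both times, gave -0.05 ± 0.15 with BMS-21 and -0.09 ± 0.15 with GLP-1. Approximate 95% intervals, taken from the SE with the normal distribution, were -0.35 to 0.25 and -0.39 to 0.21. These are narrower than the test itself would give. The sign of both differences turned with replicates 3 and 4 alone (0.08 and 0.05). With replicates 1 and 2 alone the difference passed with GLP-1 (-0.24, adjusted p = 0.023) and not with BMS-21 (-0.20, adjusted p = 0.065).

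The agents were compared with each other at equal times, each at its single dose of 1 µM BMS-21 or 100 nM GLP-1. No member passed limma's test at either time. At 1 h 0% of 12672 genes were called, with 432 genes and 0 members at an unadjusted p under 0.05 and 0 genes by edgeR or DESeq2. At 6 h 0.0158% of 12629 genes were called (0.00792% higher and 0.00792% lower with BMS-21), with 800 genes and 1 member, Atf4, at an unadjusted p under 0.05, and 0 members by edgeR or DESeq2. With the block, Trib3 was higher with BMS-21 than with GLP-1 at 6 h (0.37 ± 0.06, adjusted p = 0.00019), as was Atf4 (0.10 ± 0.03, adjusted p = 0.045), and Chac1 was higher at 1 h (0.20 ± 0.05, adjusted p = 0.023). Approximate unblocked 95% intervals, taken from the SE with the normal distribution, were narrower than the test itself would give. They were -0.28 to 1.03 for the Trib3 difference at 6 h and -0.24 to 0.32 for that of Cebpb, so equal action is not shown.

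Other ATF4 targets fell with the members in Control. Of 41 matched genes on a list of other ATF4 targets, 34 were tested and all 34 were lower at 6 h (median -1.74 on the log2 scale). Of all genes tested, 26.9% were lower. Like the members, this list and those below were chosen with earlier results of these data known. The list covers amino acid transporters, enzymes of serine and glycine synthesis and tRNA synthetases. Shmt2, a mitochondrial enzyme of serine and glycine exchange, had a log2 fold change of -2.22 ± 0.04, Psat1 of serine synthesis of -3.00 ± 0.06, the glycine transporter gene Slc6a9 of -3.37 ± 0.07 and the isoleucyl-tRNA synthetase gene Iars of -1.93 ± 0.04. At 6 h the same list was mostly higher under the agents, with 21 higher and 2 lower with BMS-21 and 18 higher and 2 lower with GLP-1. Over all genes, 16.8% were higher and 16.8% lower with BMS-21, and 16.2% and 15.6% with GLP-1. The counts of lower genes on the list were thus below the share over all genes. Slc3a2, the heavy chain of several amino acid transporters, averaged 255 ± 11.1 RPM with BMS-21 and 237 ± 12.9 RPM with GLP-1, against 154 ± 4.42 RPM in Control (SD, n = 4 each). Its log2 fold changes were 0.73 ± 0.04 and 0.63 ± 0.04, and those of the threonyl-tRNA synthetase gene Tars were 0.62 ± 0.04 and 0.58 ± 0.04. Shmt2 gave -0.09 ± 0.04 with BMS-21 and -0.02 ± 0.05 with GLP-1, and Psat1 -0.13 ± 0.07 and -0.24 ± 0.10, none past the threshold. The genes that were lower with both agents, named after their values were seen, were Psph of serine synthesis (-0.35 ± 0.06 and -0.24 ± 0.06) and the neutral amino acid transporter gene Slc1a4 (-0.18 ± 0.06 and -0.25 ± 0.06). Leaving out a library moved the count of lower genes to 1 with BMS-21 (without replicate 1 or 2 of BMS-21 or replicate 3 of Control) and to 4 with GLP-1 (without its replicate 3). Scaling by library totals gave 18 higher and 4 lower with BMS-21, and 15 higher and 3 lower with GLP-1. The difference between the 6 h and 1 h responses was positive for 15 and negative for 3 of the 34 with BMS-21, and for 10 and 4 with GLP-1 (18 and 6 with the block). Over all genes it was positive for 10.8% and negative for 10.9% with BMS-21, and for 8.3% and 9.01% with GLP-1. The counts of negative differences without the block lay near these shares.

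At 1 h, 5 of the 34 targets were higher with BMS-21 (9 with the block) and 7 with GLP-1, and 0 were lower with either (1 with GLP-1 under the block). Of all genes, 3.54% were higher with BMS-21 and 4.17% with GLP-1 without the block. The targets that were higher included Vegfa, an angiogenic growth factor gene (0.43 ± 0.03 and 0.39 ± 0.03), and Slc7a5, the light chain of the leucine transporter (0.31 ± 0.03 and 0.30 ± 0.03).

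Partner factors, which bind beside or instead of ATF4, were mostly lower at 6 h in Control as well. Of 10, 8 fell and 1, Cebpd, rose (0.34 ± 0.12, adjusted p = 0.02), a call that was lost without replicate 3 or 4 at 1 h or replicate 1 or 2 at 6 h. Among all genes 26.9% fell and 26% rose. The log2 fold change was -1.53 ± 0.05 for Cebpg, a partner of ATF4, and -2.48 ± 0.19, -2.33 ± 0.16 and -1.34 ± 0.14 for Jdp2, Atf3 and Jun of the AP-1 and ATF families. At 1 h, 4 of the 10 were higher with each agent (Fos, Cebpd, Atf3 and Jun), and 1, the antioxidant regulator gene Nfe2l2, named after its value was seen, was lower with BMS-21 (-0.24 ± 0.05). Of all genes, 3.54% were higher and 2.37% lower with BMS-21, and 4.17% and 2.41% with GLP-1. The immediate early gene Fos averaged 73.1 ± 8.20 RPM with BMS-21 and 67.1 ± 7.52 RPM with GLP-1, against 4.89 ± 0.367 RPM in Control (SD, n = 4 each), and Cebpd rose by 2.38 ± 0.10 and 2.41 ± 0.10 on the log2 scale. At 6 h 3 of 9 tested were higher with BMS-21 and 2 with GLP-1, where 16.8% and 16.2% of all genes were higher. With each agent 1 was lower, Cebpa (-0.47 ± 0.15 and -0.40 ± 0.15), named after its value was seen. Lower genes made up 16.8% of all genes with BMS-21 and 15.6% with GLP-1. The counts of 1 lower and of 2 higher lay near these shares and are not read as a result about the list. The Cebpa call was lost without replicate 1 or 3 of BMS-21 or 2 or 3 of Control, and with GLP-1 without replicate 1, 2 or 3 of GLP-1 or 2, 3 or 4 of Control. Fos (1.63 ± 0.13 and 1.39 ± 0.13) and Cebpd (1.04 ± 0.11 and 1.02 ± 0.11) were higher at 6 h too, while Cebpg gave -0.03 ± 0.04 with BMS-21 and 0.01 ± 0.05 with GLP-1. Atf3 stands on this list and on that of ATF4 targets.

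Genes upstream of ATF4 moved in both directions. Of 18 genes for eIF2 kinases, eIF2 and its exchange factor eIF2B and their regulators, 8 rose and 5 fell in Control between 1 h and 6 h, with a median of 0.09. Among all genes 26% rose and 26.9% fell, so the count of 5 lay near the share over all genes. Eif2ak2, the gene of the double-stranded RNA sensor PKR, rose by 0.42 ± 0.06, and Eif2b3, Eif2s2 and Ppp1r15b had log2 fold changes of -1.08 ± 0.05, -0.70 ± 0.03 and -0.60 ± 0.06. At 1 h 1 of the 18 was higher with each agent, Ppp1r15b, which encodes a phosphatase subunit related to GADD34 (0.20 ± 0.06, adjusted p = 0.045 with BMS-21 and 0.16 ± 0.05, adjusted p = 0.0498 with GLP-1). That call was lost without replicate 1, 2 or 4 of Control, 3 or 4 of BMS-21 or 2, 3 or 4 of GLP-1, and with scaling by library totals, and with GLP-1 also by DESeq2 and with no filter on low values. At 6 h 4 of the 18 were higher and 2 lower with each agent (2 and 5 with scaling by library totals). These counts lay near the shares over all genes, of which 16.8% were higher and 16.8% lower with BMS-21 and 16.2% and 15.6% with GLP-1. The count of higher genes was 2 without replicate 2 of Control with BMS-21 and without replicate 1 of Control with GLP-1, and that of lower genes was 1 with BMS-21 without replicate 1, 2 or 3 of Control or 2, 3 or 4 of BMS-21. Eif2ak3, which encodes the ER stress sensor PERK, averaged 81.9 ± 7.03 RPM with BMS-21 and 76.2 ± 8.20 RPM with GLP-1 at 6 h, against 59.6 ± 5.39 RPM in Control (0.46 ± 0.07, adjusted p = 2.3e-05 and 0.35 ± 0.08, adjusted p = 0.0026). Eif2ak4, which encodes the amino acid sensor GCN2, was lower (-0.20 ± 0.05, adjusted p = 0.0043 and -0.23 ± 0.05, adjusted p = 0.0014).

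Genes of the other ER stress branches, under ATF6 and IRE1, were mostly higher at 6 h than at 1 h in Control and mostly higher with the agents at 6 h. Of 19, 13 rose and 3 fell in Control between 1 h and 6 h, with a median of 0.37. Among all genes 26% rose and 26.9% fell. The 3 that fell were Ern1, the gene of IRE1 itself (-1.73 ± 0.08), Atf6 (-0.66 ± 0.05) and Sel1l of ER-associated degradation (-1.39 ± 0.09, named after its value was seen). At 6 h 17 of the 19 were higher with each agent and 0 lower, with medians of 0.45 with BMS-21 and 0.40 with GLP-1. Of all genes, 16.8% were higher with BMS-21 and 16.2% with GLP-1. Xbp1, the factor activated by IRE1, averaged 452 ± 18.1 RPM with BMS-21 and 443 ± 17.8 RPM with GLP-1, against 326 ± 14.7 RPM in Control, and Edem1, which helps to clear misfolded protein, rose by 0.45 ± 0.04 and 0.43 ± 0.04. At 1 h limma called 0 of the 19 with either agent, as did edgeR and DESeq2, with 2 (BMS-21) and 1 (GLP-1) at an unadjusted p under 0.05, and 4 and 3 with the block. Without replicate 2 of BMS-21 at 1 h, 1 was called. The difference between the 6 h and 1 h responses was positive for 15 of the 19 with BMS-21 and 11 with GLP-1 (17 with the block), and negative for 0. Over all genes it was positive for 10.8% with BMS-21 and 8.3% with GLP-1 without the block.

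**Figure D4:**
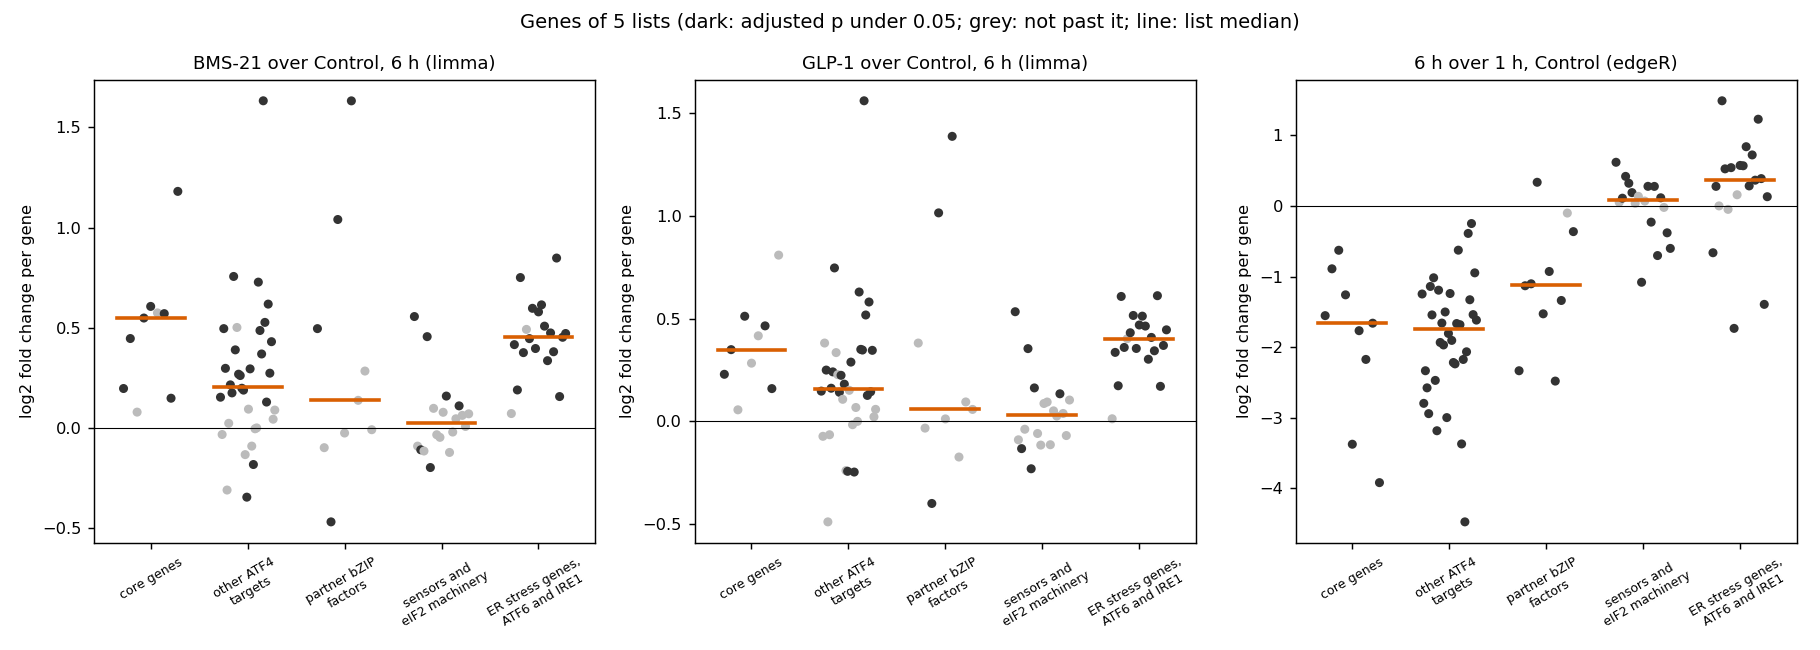
Log2 fold change per gene (vertical axes, of different range) for the members and the 4 related lists, with BMS-21 over Control at 6 h, GLP-1 over Control at 6 h and 6 h over 1 h in Control. Dark points passed an adjusted p of 0.05 and lines mark list medians. In Control the members (median -1.66) and the other ATF4 targets (-1.74) lie below 0 and most ER stress genes of the ATF6 and IRE1 branches (0.37) above it.

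The members differed in how far libraries of the same number moved together. After the group means were removed, replicate 3 was above its group mean in all 6 groups for Chac1 (mean deviation 0.48 on the log2 scale), Trib3 (0.37), Ddit3 (0.29), Ppp1r15a (0.16), Sesn2 (0.12) and Atf5 (0.09). Replicates 1 and 2 of Trib3 were below theirs (-0.18 and -0.28), as were those of Ddit3 (-0.20 and -0.20). In Atf4 and Asns no replicate number deviated by more than 0.04 on average. Cebpb followed another order, with replicate 4 high (0.17) and replicate 1 low (-0.14). A split by replicate number also marked the libraries as a whole. Group means were removed before principal components were taken. The first component, the largest axis of the variation left within groups, held 26.9% of it. Replicates 1 and 2 were negative on this component and replicates 3 and 4 positive in all 6 groups. Part of the spread within a group is thus a spread between 2 pairs of libraries, and its cause was not tested.

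**Figure D5:**
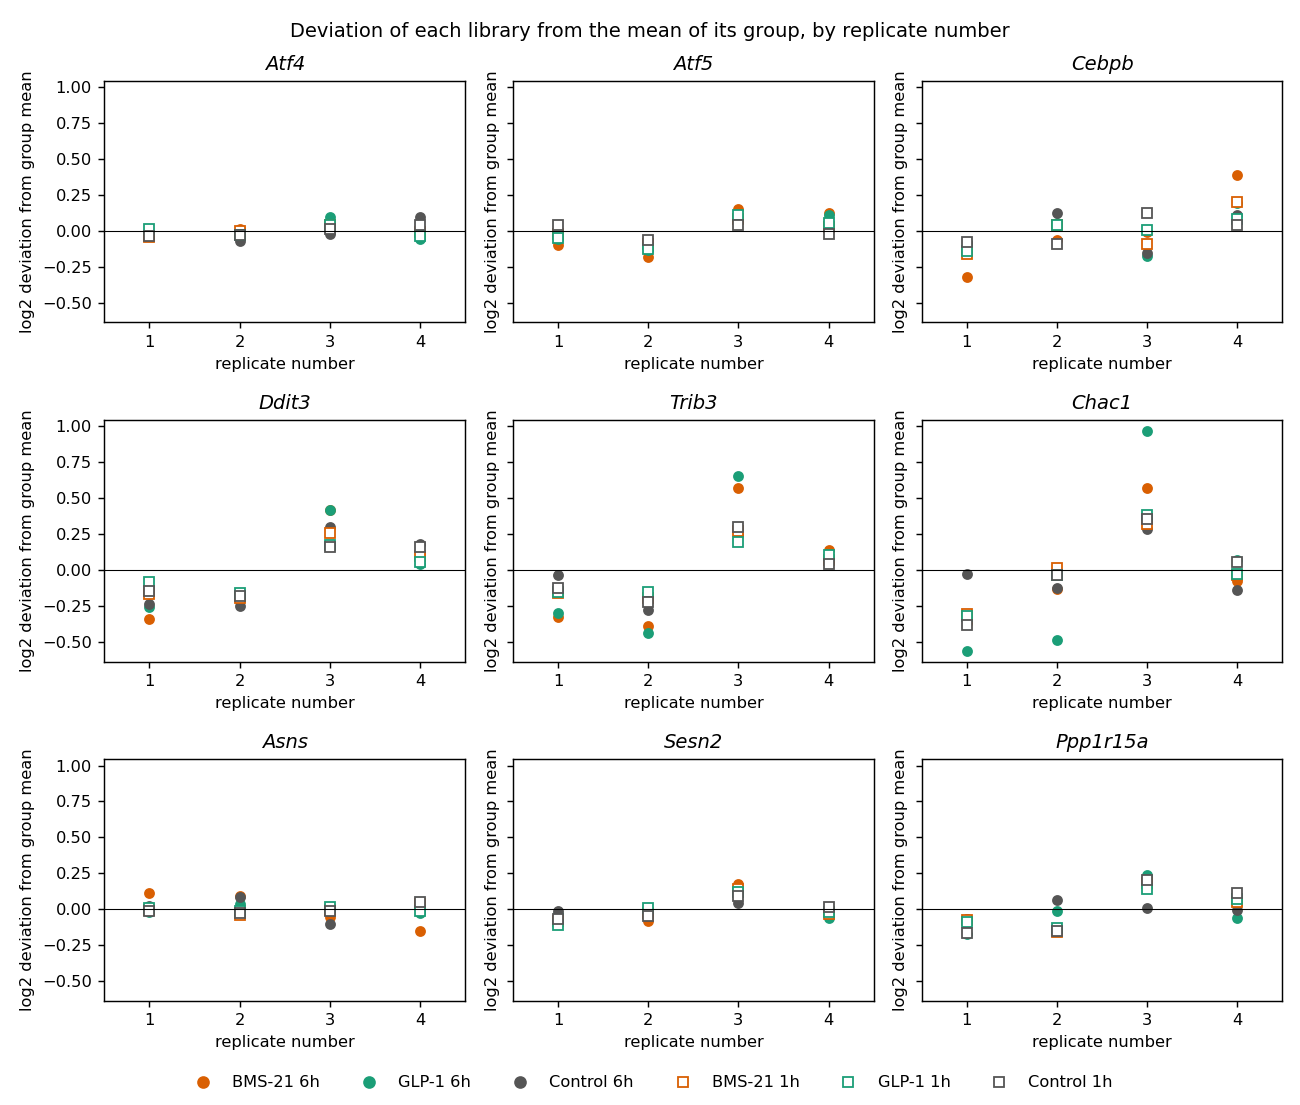
Deviation of each library from the mean of its group, in log2(RPM + 1) (vertical axis), by replicate number for the 9 members, with filled circles for 6 h and open squares for 1 h. Replicate 3 lies above 0 in all groups for Chac1, Trib3 and Ddit3, while Atf4 and Asns stay close to 0.

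In the order of group means, every member had its 3 groups of 1 h above its 3 groups of 6 h. At 6 h BMS-21 came first for 7 of the 9 members and GLP-1 for Asns and Sesn2, the libraries of the agents overlapped in all 9, and Control was the lowest group in all 9. At 1 h only Cebpb and Ppp1r15a had a group, Control, apart from its neighbour in that order. Shares of all genes with such an order or overlap are not given here, so these counts are not read as particular to the members. The genes outside the 10 whose course over the 24 libraries was nearest to the mean course of the 9 members were Sars, Elmsan1, Gtpbp2, Arhgap6 and Creb3l1. Their root mean square difference from it was 0.12, 0.13, 0.14, 0.14 and 0.14 on the log2 scale, out of 9453 genes compared, and Sars is also on the list of other ATF4 targets.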

How the data were processed

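The authors deposited 6 tables, 1 per pair of groups at a time, holding normalised read counts, a linear signal in which each library's reads are divided by its own size factor. Per the submitters' processing notes, the build was Rnor_5.0 and the tools included TopHat2 2.0.12, Bowtie2 2.2.3.0, SAMtools 0.1.19.0, Subread, DESeq and DESeq2 1.6.3, with no roles given; the annotation version is not given in the sources used here. All values (100%, tolerance 0.001) were whole multiples of a step, which gave back the reads.

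Agents were compared within a time with limma 3.58.1 (trend, robust; R 4.3.3) on log2(normalised count + 1) after genes averaging under 10 were dropped, which understates the change of low genes. Comparisons across times and of responses used edgeR 4.0.16 (TMM scaling, filterByExpr, quasi-likelihood test) on all 24 libraries' recovered reads, because size factors belong to a table. All p-values are two-sided and Benjamini-Hochberg adjusted over all genes, threshold 0.05, and ± after a log2 value is its SE. The count test on recovered reads called 752 and 849 genes at 1 h and 4285 and 4029 at 6 h (BMS-21 and GLP-1 against Control), against 751, 837, 4253 and 4011 by limma. The fits were tested on simulated data.

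The replicate numbers, taken from the labels, pair the samples: on 10799 genes with a mean of at least 50 reads, libraries of the same number in compared groups correlated by 0.125 to 0.406 after group means were removed (36 pairs; lowest 0.0428 on all 13114 genes). The main fits have no block. No library duplicated another.

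The members, gene lists and tests were chosen with earlier results of these data known. Genes named from a list were up to 4 with the smallest adjusted p in Control at 6 h against 1 h and up to 2 in each agent comparison and difference of responses, and the 5 nearest genes had a mean of at least 50 reads. Alternatives were other pseudocounts, filters, scalings and tools, the block, replicates 1 and 2 or 3 and 4 alone, and leaving out each library; edgeR with the block was added after seeing the data.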

Additional observations from a re-analysis of the deposited data

Results flagged for a closer look

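The response to an agent differed between 6 h and 1 h for 3 members with each agent, by edgeR's test of the difference itself. For Atf4 the response at 6 h exceeded that at 1 h by 0.34 on the log2 scale with BMS-21 and by 0.28 with GLP-1, and for Asns by 0.22 and 0.20. For Cebpb the difference was -0.52 with BMS-21 and -0.59 with GLP-1. The 2 sets of responses share their Control libraries, so they are not independent of each other. No library lay so far from the other 3 of its group in any of the 54 combinations of member and group that it met Dixon's criterion.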

How the results depend on the processing

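All 9 members kept their fall between 1 h and 6 h in each treatment under all 16 alternatives run. Over every comparison, 1802 member values kept their side of the threshold, 52 moved past it and 35 lost it. The sign changed in 66 of the 1802, none of them past the threshold in either fit, among them Chac1 with GLP-1 at 6 h and Atf5 and Ddit3 with either agent at 1 h. The replicate block moved most. With it, BMS-21 at 1 h called 5 members and 1551 genes (751 without it), and GLP-1 at 1 h called 1513 genes (837 without it). GLP-1 at 6 h called 8 members, and BMS-21 against GLP-1 called 1 member and 85 genes at 1 h and 2 members and 217 genes at 6 h. The difference of responses called 5 members with BMS-21 and 6 with GLP-1. edgeR with the block, an alternative chosen after seeing the data, called 5 members and 1567 genes (BMS-21, 1 h), 1542 genes (GLP-1, 1 h), 9 members (GLP-1, 6 h), and between the agents 1 member and 86 genes at 1 h and 2 members and 226 genes at 6 h. In the other comparisons the block moved no count of members or of all genes by over 1.5 times.

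With replicates 1 and 2 alone, BMS-21 at 1 h called 4 members, its difference of responses 5, and BMS-21 against GLP-1 at 6 h 37 genes. With replicates 3 and 4 alone, GLP-1 at 6 h called 8 members, BMS-21 at 1 h 497 genes, and BMS-21 against GLP-1 at 6 h 39 genes. That last comparison gave 1 gene with a mean of at least 50, 18 by DESeq2, and 0 without any single library of the 8 (2 with all of them). Leaving out single libraries gave 1 to 3 members for BMS-21 and 1 to 2 for GLP-1 at 1 h. The cause was not tested. Depth limits Chac1 most, with 32 to 120 reads per library at 6 h.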
